A study of Mus musculus with 24 samples.

Results

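The CTCF motif constructs are 4 of the 62 barcoded fragments measured in the Hi-TransMet pools. They are the wild-type (WT) and the scrambled (Sc) version of 2 CTCF motifs, CTCF.1 and CTCF.2, and were chosen by their names in the pool tables, without use of any methylation value. In this assay each motif is cloned into FR1, a CpG-containing bacterial DNA fragment, and 1 copy is placed at the β-globin locus of each mouse embryonic stem cell (ESC) by recombinase-mediated cassette exchange. The motif lies between barcodes that identify the construct after bisulfite sequencing, and the Sc version has the bases of the motif in another order with its CpG kept. CTCF.1 and CTCF.2 stand for different orientations of the site in the genome.

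The constructs were sequenced in 5 pools of cells: ESC −SssI, ESC +SssI, NP −SssI, NP +SssI and TET TKO +SssI. In −SssI pools the library was unmethylated at insertion, and in +SssI pools it had first been methylated by the bacterial CpG methyltransferase M.SssI. Neural progenitors (NP) were obtained from inserted ESCs by differentiation with retinoic acid. ESC and NP cells are of strain C57BL/6 X 129S5, and TET TKO cells, which lack TET1, TET2 and TET3, are ESCs of strain C57BL/6 X 129/sv. A TET TKO pool without M.SssI was not analysed here. The authors' read filter on methylation outside CpGs was applied to ESC and NP but not to TET TKO reads. Strain, genotype and this filter therefore cannot be told apart in comparisons of TET TKO with ESC pools.

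CTCF is a zinc-finger protein that binds a long motif at insulators, promoters and distal elements and, with cohesin, marks the borders of chromatin loops. Its sites in the genome usually lie in short stretches of low DNA methylation. A CpG within the motif can affect binding when methylated. TET enzymes oxidise 5-methylcytosine, which is 1 route by which methylation is removed.

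Methylation level is the percentage of reads in which the cytosine of a CpG was protected from conversion. Every CTCF fragment had 24 CpGs: 18 upstream of the motif (−291 to −32 bp), 1 inside it, and 5 downstream (37 to 252 bp), with positions counted from the motif. The reads of all numbered runs of a pool were summed, and a CpG needed 10 reads in both fragments to be compared. All 24 CpGs of both motifs passed in every pool. A CTCF fragment had from 22 to 4619 reads per CpG, with pool medians between 82.5 (ESC +SssI) and 451 (NP +SssI). Δmet is the methylation level of the WT minus that of the Sc fragment, in percentage points. Its 95% interval covers counting error only, since each pool is 1 table and the labels do not say what a run is. P-values and intervals thus compare the reads of fragments within pools, and how many independent insertions stand behind a fragment was not analysed here.

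RNA-seq of the same cell types gave the level of the factor. Ctcf RNA was at 47.1, 48.8 and 40.2 RPKM (reads scaled to gene length and library size) in the 3 ESC libraries, at 44.0, 35.1 and 40.0 in the 3 NP libraries, and at 55.2, 70.1 and 57.6 in the 3 TET TKO libraries. ESC and NP values overlapped, and the TET TKO values lay above both. Ctcfl, the germline paralogue of Ctcf, was lower throughout, with 0.893 ± 0.0838 RPKM for ESCs, 0.0134 ± 0.0128 for NPs and 0.117 ± 0.0249 for TET TKO cells (SD, n = 3). The summed level of 8 ESC markers was 2597 to 2679 RPKM in ESC, 57.8 to 75.3 in NP and 2429 to 3228 in TET TKO libraries. For 8 neural progenitor markers the sums were 6.23 to 7.90, 182 to 334 and 9.72 to 22.4 RPKM. All 4 endoderm markers averaged above 1 RPKM in NPs, with sums of 18.5 to 22.4 RPKM, against 1.04 to 1.83 in ESCs. The summed level of 3 fibroblast markers varied from 2.14 to 27.4 RPKM over the NP libraries, against 5.52 to 6.77 in ESCs. Col1a1 was at 6.45, 17.4 and 1.47 RPKM in the 3 NP libraries and averaged 1.16 in ESCs. Col1a2 averaged 0.0930 RPKM in ESCs and 3.96 in NPs, whereas Thy1 averaged 4.86 in ESCs and 0.667 in NPs. The part of both lists in the NP methylation values was not tested. Tet1, the main TET gene of ESCs, was at 60.8 to 68.5 RPKM in ESC libraries 11.3 to 16.1 in TET TKO and 3.17 to 5.45 in NP libraries, counted over whole genes and not over the deleted parts. Tet3 averaged 0.715 RPKM in ESC, 0.551 in TET TKO and 7.82 in NP libraries. Summed over Tet1, Tet2 and Tet3, NP libraries had 11.6 to 22.5 RPKM and TET TKO libraries 14.1 to 19.4, and these ranges overlap.

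In ESCs that received unmethylated fragments, DNA around both WT CTCF motifs had much lower methylation than around the Sc motifs. The WT fragment of CTCF.2 had the lowest level of any WT fragment in this pool, at 4.23% on average over its 24 CpGs, against 78.9% at its Sc fragment. For CTCF.1 the averages were 23.0% and 70.9%. Δmet was −74.7 points (95% interval −77.7 to −69.1; median 123 and 1619 reads) for CTCF.2 and −47.8 points (−52.7 to −42.4; 331 and 1225 reads) for CTCF.1. The median Δmet of the 28 motifs with enough CpGs was −12.1 points, and 53.6% of them had an interval below 0.

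CpG by CpG, 24 of 24 positions of CTCF.2 and 22 of 24 of CTCF.1 were called lower at the WT fragment, that is, by 10 points or more at an adjusted p under 0.05 (Fisher's exact test, Benjamini-Hochberg over all motifs of the pool). The same call was made at 45.2% of all CpGs tested in this pool. A hypomethylated region (HMR), at least 3 consecutive called CpGs spanning over 50 bp, covered all 543 bp for CTCF.2 and 439 bp, from −187 to 252, for CTCF.1. An HMR was found for 50% of the 30 motifs. The farthest upstream CpG at −291 was methylated in 36 of 332 reads at CTCF.1 WT (10.8%) and in 1 of 123 at CTCF.2 WT (0.813%), against 50.2% and 68.8% at the Sc fragments. The nearest upstream CpG at −32 stood at 20.3% in CTCF.1 WT and was methylated in 0 of 120 reads in CTCF.2 WT, which allows a level of up to 2.50%. The highest WT values were 63.9% at −242 for CTCF.1 and 27.0% at 252 for CTCF.2. Upstream of CTCF.1 WT the level averaged 39.9% over the 6 farthest upstream CpGs and 19.3% over the 6 nearest.

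Runs of this pool gave different levels for the same fragment. Upstream of CTCF.1 WT the mean was 34.9% in run 1 and 35.5% in run 5, but 1.34% in run 4. The Sc fragment of CTCF.1 was also lower in run 4, at 34.3%, than in runs 1 and 5, at 76.4% and 77.8%. Run 4 gave 86.1% of the upstream reads of CTCF.2 WT and stood at 0.897%, against 25.3% in run 1 (11 reads) and 19.4% in run 5 (6 reads). The low level of CTCF.2 WT thus rested mainly on run 4, whereas CTCF.2 Sc came mainly from runs 1, 5 and 7. Upstream, CTCF.2 Sc was at 0% in run 4 as well, over a median of 3 reads. In that run it was at 57.1% of 7 reads at the motif CpG and at 85% downstream (median 4 reads). Without run 4, Δmet of CTCF.2 was −61.6 points (−73.1 to −38.2) and that of CTCF.1 −39.1 points (−45.0 to −32.8). The CTCF.1 value then covered 19 CpGs, without the downstream ones, and the CTCF.2 value 24. Compared within runs, Δmet was −58.6 points (−74.7 to −42.4; 19 CpGs, 1 run) for CTCF.2 and −42.1 points (−48.0 to −36.2; 19 CpGs, 3 runs) for CTCF.1. Runs 1 and 5 had look-alike upstream fragment counts, as given at the end, so their values may not be independent. The downstream CpGs of CTCF.1 WT rested on 22 reads, all from run 4, with a mean of 4.55%.

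The CpG inside the motif was low at the WT fragments of the ESC and NP pools. Its level at CTCF.1 WT was 0.282% in ESC −SssI, 1.90% in ESC +SssI, 0.122% in NP −SssI and 0.637% in NP +SssI. At CTCF.2 WT it was 0% of 282 reads (an upper limit of 1.06%), 11.9%, 2.00% and 0.0840% in the same order. Read numbers behind these values ran from 202 to 1191. Over these 4 pools, 30 values from single runs with 10 reads or more were available for this CpG. Of them, 28 were under 3% and 21 were 0, and the highest was 16.8% in run 4 of ESC +SssI, at CTCF.2 WT. Some of these runs had look-alike fragment counts, as given at the end, so the values may not be independent. At the Sc fragments the CpG kept at the same place was methylated at 43.9%, 43.2%, 58.2% and 46.6% for CTCF.1 and at 50.5%, 57.4%, 79.2% and 86.0% for CTCF.2. Δmet at the motif CpG was therefore between −41.3 (ESC +SssI) and −58.0 points (NP −SssI) for CTCF.1, and between −45.5 (ESC +SssI) and −86.0 points (NP +SssI) for CTCF.2. In ESC −SssI run 4 the motif CpG of CTCF.1 Sc was itself at 0% of 35 reads, with 1.25% at the WT. The pair thus did not differ there. In ESC +SssI the motif CpG of CTCF.2 Sc ranged from 4.17% in run 6 (24 reads) to 77.3% in run 4 (22 reads).

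Methylated fragments were placed in ESCs to ask whether a motif can remove methylation already present. Around both WT CTCF motifs methylation was again well below that of the Sc fragments. It averaged 19.7% at CTCF.1 WT and 28.1% at CTCF.2 WT, against 65.5% and 82.6% at Sc. Δmet was −45.8 points (−55.6 to −34.1; median 129 and 123 reads) for CTCF.1 and −54.5 points (−66.6 to −37.5; 70 and 51 reads) for CTCF.2. In this pool 48.3% of motifs had an interval below 0. Compared within runs 4 and 5, Δmet was −46.7 (−56.4 to −37.1) and −50.1 points (−65.2 to −35.1). The upstream CpGs of CTCF.2 came from run 5 alone there, since run 4 held a median of 3 Sc reads. Downstream CpGs of CTCF.1 came from run 4 alone, since run 5 held a median of 3 WT reads. All 24 CpGs of CTCF.1 and 23 of CTCF.2 were called lower (Fisher's exact test), while 48.8% of all CpGs tested in the pool were. The 1 exception was −187 of CTCF.2, where WT stood at 52.9% and Sc, at its lowest, at 49.0%.

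CTCF.1 had 1 HMR over the whole 543 bp, and CTCF.2 had 1 from −291 to −208 and another from −178 to 252. HMRs were found for 60.0% of motifs. CTCF.2 WT was unmethylated in all 70 reads at −32 (an upper limit of 4.29%), yet was methylated in 63 of 70 reads at −235, close to the 100% of its Sc fragment. At −235 CTCF.1 WT also had its highest value, 58.1%, and its lowest outside the motif was 6.98% at −291. Average levels fell toward the motif in both fragments, from 25.5% over the 6 farthest to 16.6% over the 6 nearest upstream CpGs for CTCF.1, and from 51.4% to 8.48% for CTCF.2. Runs differed here too: upstream of CTCF.1 WT the mean was 5.77% in run 4 and 36.0% in run 5, and of CTCF.2 WT 6.22% and 42.3%. The Sc fragment of CTCF.1 moved with them, at 49.8% and 85.6%.

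In neural progenitors from the −SssI pool, methylation was higher around the WT motifs than in ESCs. WT fragments averaged 47.7% for CTCF.1 and 46.8% for CTCF.2, with Sc at 86.5% and 91.1%. Δmet was −38.8 points (−45.1 to −30.8; median 554 and 135 reads) for CTCF.1 and −44.3 points (−50.2 to −38.3; 288 and 1278 reads) for CTCF.2, against a median of −2.36 points over 29 motifs. An interval below 0 was found for 37.9% of them. Within runs Δmet was −46.4 (−53.8 to −38.9; 5 runs) and −51.5 points (−58.0 to −44.9; 2 runs). The 5 runs of CTCF.1 include runs 2, 9 and 10, which had look-alike fragment counts. For each motif 21 of 24 CpGs were called lower (Fisher's exact test), and 30.8% of all CpGs in the pool. At −208 the WT fragment of CTCF.2 was called higher, at 91.7% against 78.3%. A higher call was made at 15.9% of all CpGs.

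The HMR of CTCF.1 ran from −211 to 37 (248 bp, 15 CpGs) and that of CTCF.2 from −187 to 151 (338 bp, 16 CpGs), and 33.3% of motifs had an HMR. Outside the motif both were lowest at 151, at 7.91% for CTCF.1 and 2.42% for CTCF.2. The outermost downstream CpG at 252 was at 93.9% and 90.8%, near the 98.3% and 95.9% of the Sc fragments, and −235 was at 91.0% and 99.7%. Upstream, the WT average was 37.5% over the 6 nearest, 45.5% over the 6 middle and 65.4% over the 6 farthest CpGs for CTCF.1, and 40.1%, 40.9% and 72.8% for CTCF.2. Upstream, the average level of both WT fragments was thus highest far from the motif. Downstream, levels did not rise steadily with distance: the nearest CpG at 37 was at 39.5% and 31.6%, above the values at 151. The 5 runs with enough reads upstream of CTCF.1 WT gave means from 30.4% to 56.4%, and those of CTCF.2 WT from 34.1% to 54.6%. These ranges did not overlap those of the Sc fragments, which were 86.0% to 97.6% and 92.4% to 93.1%. Runs 2, 9 and 10 had look-alike upstream fragment counts, as given at the end, so their values may not be independent.

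In neural progenitors from the +SssI pool the motifs parted. CTCF.2 WT averaged 34.4%, with 84.2% at Sc, and CTCF.1 WT averaged 65.0%, with 80.9% at Sc. Δmet was −49.8 points (−56.0 to −42.3; median 452 and 183 reads) for CTCF.2 and −15.9 points (−22.9 to −9.08; 234 and 545 reads) for CTCF.1. Of 24 CpGs, 22 were called lower for CTCF.2 and 15 for CTCF.1 (Fisher's exact test), and 35.9% of all CpGs in the pool. No CpG of either was called higher, against 9.84% of all CpGs, and 44.8% of motifs had an interval below 0. CTCF.2 had an HMR from −291 to −211 and another from −187 to 151, and CTCF.1 had 1 from −166 to 151. Of all motifs, 46.7% had any. Average Δmet of CTCF.1 was −31.0 points (−38.0 to −23.9) over the 6 nearest upstream CpGs and 1.25 points (−4.94 to 6.83) over the 6 farthest. The deepest falls lay at −148 for CTCF.1 (27.5% against 82.2%, Δmet −54.7 points) and at −101 for CTCF.2 (3.55% against 98.9%, Δmet −95.4 points).

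The CTCF.1 values of this pool rested on runs in which the WT and Sc fragments hardly met. Run 7 held 98.3% of the upstream reads of CTCF.1 WT (median 230 reads) and a median of 2 reads of CTCF.1 Sc. Without run 7 only 6 CpGs could be compared, and Δmet was 3.66 points (−9.05 to 13.3). Within runs, over the same 6 CpGs, Δmet turned to 25.9 points (16.4 to 35.3). There the downstream WT reads were at 95.6% in run 1 and 95% in run 11, against 50.9% and 50.4% at Sc, while the motif CpG of the WT was at 0% in both. Runs 1 and 11 had look-alike downstream fragment counts, as given at the end, so their values may not be independent. Run 8 went the other way, with 76% at WT and 100% at Sc over 10 and 13 reads. In run 7 the downstream WT mean was 48.9%. The direction of Δmet outside the motif for CTCF.1 in NP +SssI thus changed with the runs compared. For CTCF.2 it did not, at −41.6 points (−49.7 to −33.5) within 3 runs, with upstream WT means of 29.7% to 41.2% over 5 runs.

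In ESCs without TET enzymes methylation stayed high at all 4 CTCF fragments after +SssI insertion. WT fragments averaged 95.4% for CTCF.1 and 84.4% for CTCF.2, and Sc fragments 97.8% and 96.1%. The motif CpG was at 90.2% (129 of 143 reads) in CTCF.1 WT and 86.2% (405 of 470 reads) in CTCF.2 WT, against 93.5% and 92.5% at Sc. Δmet was −2.43 points (−8.29 to 6.31; median 113 and 52 reads) for CTCF.1, not distinguishable from 0 at this depth. For CTCF.2 it was −11.6 points (−20 to −4.18; 107 and 131 reads). An interval below 0 was found for 20% of motifs here. CTCF.1 had 3 CpGs called lower and no HMR. CTCF.2 had 14 called lower (Fisher's exact test) and 1 HMR of 9 CpGs, from −187 to −88, where 26.7% of motifs had an HMR and 20.2% of all CpGs were called lower.

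The lowest WT value of CTCF.2 was 76.4% at −187, and at −84 and −101 alike 82 of 107 reads were methylated. From −187 to −84 its WT values apart from −178 lay between 76.4% and 77.6%. Downstream, Δmet of CTCF.2 was −0.458 points (−3.44 to 2.37). By median read number, run 10 gave 92.5% of the upstream reads of CTCF.2 WT and all those of the other CTCF fragments. In run 10 alone the upstream Δmet of CTCF.2 was −12.0 points (−20.8 to −4.46). Without run 10 only the downstream and motif CpGs remained, with −0.606 points (−5.40 to 3.70). Against the mean of all Sc fragments of this pool, 88.8%, Δmet of CTCF.2 was −4.39 points (−12.5 to 1.39) and that of CTCF.1 6.54 points (0.857 to 9.40), so the direction for CTCF.1 turned with the reference.

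The profiles of the motifs were compared across positions. Across the 23 CpGs outside the motif, the profile of CTCF.1 WT correlated with that of CTCF.2 WT at a Pearson r of 0.796 in ESC +SssI, 0.861 in NP −SssI and 0.722 in NP +SssI, but at 0.315 in ESC −SssI and 0.181 in TET TKO. The Sc profiles of both motifs correlated at 0.908 in ESC −SssI, higher than any WT pair, and at 0.352 or less in the other pools. WT and Sc profiles of the same motif correlated at 0.559 or less in every pool. These values describe CpGs that share reads, libraries and base context, and carry no test. The CpG at −235 gave the highest WT value of both motifs in ESC +SssI and NP +SssI and of CTCF.2 in NP −SssI. It was also the highest value in 4 Sc profiles.

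Setting the motifs against each other, CTCF.2 had the more negative Δmet in every pool when runs were summed, and the difference exceeded counting error in ESC −SssI and NP +SssI. CTCF.2 minus CTCF.1 was −26.8 points (−33.1 to −19.5) in ESC −SssI and −33.9 points (−43.1 to −23.6) in NP +SssI. Between any 2 motifs, such an interval left out 0 in 76.2% and 56.7% of pairs in these pools. In ESC +SssI the difference was −8.69 points (−25.6 to 11), in NP −SssI −5.54 points (−15.4 to 3.17) and in TET TKO −9.20 points (−21.3 to 0.275), where 60.6%, 52.0% and 46.2% of pairs left out 0. Within runs the ESC −SssI difference was −16.5 points (−33.7 to 0.730). Without run 4 it was −22.5 points and no longer left out 0, with 19 CpGs for CTCF.1 and 24 for CTCF.2. The NP +SssI difference rested on the CTCF.1 values described above.

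The Sc fragments of the motifs differed as well in some pools. CTCF.2 Sc was higher than CTCF.1 Sc by 8.05 points (4.83 to 11.3) in ESC −SssI and by 17.1 points (2.28 to 29.0) in ESC +SssI. WT levels alone were −18.8 points apart (−24.2 to −12.1; CTCF.2 minus CTCF.1) in ESC −SssI, 8.41 points (−3.57 to 21.3) in ESC +SssI, −0.918 points (−7.96 to 6.17) in NP −SssI, −30.6 points (−37.8 to −22.9) in NP +SssI and −10.9 points (−19.4 to −2.99) in TET TKO. Of 23 CpGs outside the motif, CTCF.2 WT was called lower than CTCF.1 WT at 15 in ESC −SssI, 3 in ESC +SssI, 6 in NP −SssI, 22 in NP +SssI and 13 in TET TKO, and higher at 1, 8, 6, 0 and 0 (Fisher's exact test). Any 2 WT fragments were called different at 72.4%, 67.2%, 51.3%, 56.3% and 44.5% of CpGs in these pools. For any 2 Sc fragments the shares were 66.5%, 57.4%, 37.7%, 36.6% and 45.5%, so scrambled fragments also differed often by the same call.

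Comparing pools, prior methylation left Δmet of CTCF.1 in ESCs within error, with a difference of 2.07 points (−9.19 to 14.7; +SssI minus −SssI). For CTCF.2 Δmet was smaller in size after M.SssI, by 20.2 points (6.84 to 37.5). A difference that left out 0 was found for 60.7% of motifs. The WT fragment of CTCF.2 was higher at 17 of 24 CpGs and lower at 0 in +SssI, and 40.7% of CpG values over all fragments were higher and 21.8% lower. Its greatest gain was 72.8 points at −235. Its Sc fragment differed by 3.65 points on average (−9.07 to 11.9). Within runs the CTCF.2 difference was 8.43 points (−13.7 to 30.5), which does not leave out 0, and without ESC −SssI run 4 it was 7.14 points, or 5.32 points without ESC +SssI run 5. The within-run ESC −SssI value covered 19 CpGs and the ESC +SssI value 24. In NPs the same contrast gave 22.9 points (12.3 to 32.2) for CTCF.1, with 19 CpGs of the WT fragment higher and 0 lower, and −5.44 points (−14.1 to 4.07) for CTCF.2, where 13 were lower and 1 higher. Over all fragments 12.8% of CpG values were higher and 27.7% lower, and 44.8% of motifs had a Δmet difference that left out 0. The CTCF.1 value again rested on run 7 of NP +SssI.

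From ESC to NP without M.SssI, Δmet shrank in size by 9.04 points (0.676 to 18.4) for CTCF.1 and by 30.3 points (22.3 to 37.1) for CTCF.2. For CTCF.1, upstream Δmet was −43.9 points in ESC and −40.8 in NP, and downstream Δmet −63.0 and −27.7. The motif CpG went the other way, from −43.6 to −58.0 points. Downstream, CTCF.1 WT in ESC rested on 22 reads, all from run 4. The interval used the median of 331 reads of the whole fragment. WT fragments were higher in NP at 16 and 21 of 24 CpGs and Sc fragments at 20 and 13, against 78.6% of CpG values over all fragments, with 2.54% lower. None was lower at the WT fragments. WT fragments gained 24.7 (18.3 to 30.6) and 42.5 points (34.9 to 48.8) on average, and the motif CpG was not among the CpGs called. The greatest gains were 89.3 points at 252 for CTCF.1 and 90.9 points at −208 for CTCF.2. At 252 the ESC level of CTCF.1 WT was 1 methylated read of 22. Within runs the Δmet differences were −4.28 (−13.8 to 5.24) and 7.09 points (−10.4 to 24.5), neither of which left out 0. There the ESC values covered 19 CpGs, without the downstream ones, and the NP values 24. Without ESC −SssI run 4 the differences were 0.296 and 17.3 points, again not beyond counting error. For CTCF.1 the ESC value then covered 19 CpGs and the NP value 24, so the direction over the same CpGs was not tested. With M.SssI, Δmet differed by 29.9 points (16.3 to 41.8) between NP and ESC for CTCF.1 and by 4.69 points (−13.4 to 19.0) for CTCF.2. WT fragments were higher in NP at 23 and 12 CpGs and lower at 0 and 4, where 69.9% of all values were higher and 4.14% lower. The shares of motifs whose Δmet difference left out 0 were 57.1% without and 62.1% with M.SssI.

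Between TET TKO and ESC pools, both +SssI, Δmet differed by 43.3 points (30.3 to 56.5) for CTCF.1 and 42.8 points (23.9 to 57.1) for CTCF.2. A difference that left out 0 was found for 65.5% of motifs. CTCF.1 WT was higher in TET TKO at 24 of 24 CpGs and CTCF.2 WT at 23, and their Sc fragments at 21 and 11, whereas 73.8% of CpG values over all fragments were higher and 3.45% lower. The ESC pools enter several of these comparisons, so these are not independent of each other. WT averages were 75.7 (66.2 to 82.2) and 56.3 points (42.3 to 67.1) higher, and Sc averages 32.3 (20.9 to 41.3) and 13.5 points (4.13 to 26.3). Within runs, the Δmet differences also left out 0. The CpG inside the motif went from 1.90% to 90.2% in CTCF.1 WT and from 11.9% to 86.2% in CTCF.2 WT.

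Ordered by Δmet from the most negative, CTCF.2 held place 1 of 28 motifs in ESC −SssI, place 3 of 29 in ESC +SssI, place 2 in NP −SssI, place 1 in NP +SssI and place 6 of 30 in TET TKO. CTCF.1 held places 3, 6, 3, 9 and 11. Place 9 in NP +SssI and place 11 in TET TKO rest on Δmet values whose direction changed with the runs or the reference, as given above. Place 1 of CTCF.2 in ESC −SssI rested mainly on run 4. Without that run its Δmet was −61.6 points, whereas KLF4, next in order, was at −61.0 points with all runs. In TET TKO Δmet of CTCF.2 was −0.606 points without run 10, over the motif and downstream CpGs alone. The nearest neighbours were REST (−46.3 points) after CTCF.1 in ESC −SssI, KLF4 (−62.5 points) before and REST (−52.4 points) after CTCF.2 in ESC +SssI, and SOX17 (−46.7 points) after CTCF.2 in NP +SssI. In NP −SssI REST (−45.4 points) stood before CTCF.2, and the composite OCT4-SOX2 motif (−36.3 points) after CTCF.1. In TET TKO CTCF.1 lay among motifs with Δmet near 0, between CREB (−2.82 points) and NRF1 (−1.45 points), with a median over motifs of 1.39 points. Whether neighbours in this order differ was not tested one by one.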

How the data were processed

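Hi-TransMet amplicons of 5 pools were analysed, with 9 RNA-seq libraries. Per the labels and methods, the authors trimmed reads (Trim Galore 0.4.4), assigned them to constructs without mismatches, aligned them with Bismark 0.20.0, filtered unconverted reads (not in TET TKO), removed duplicates by molecular identifier and deposited methylated and total read counts per CpG and run, beside percent tables with a minimum of 10 reads. The 92 CTCF percentages compared in each pool matched the counts to within 0.0005 points. The ESC −SssI and NP +SssI pools are named by 2 samples each, which share 1 table and were counted as 1 pool; 0 columns had no sample. RNA counts were deposited as made by the authors with STAR 2.6.1b and featureCounts 1.6.2 (unstranded, GRCm38). Gene lengths came from the same files, and RPKM used edgeR 4.0.16 TMM factors; no gene was tested. These libraries held 20519702 to 93210102 assigned reads.

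Here reads were summed over runs (3 to 9 per pool). Per CpG, Fisher's exact test (two-sided) was run on WT and Sc reads, with Benjamini-Hochberg adjustment over the 30 motif pairs of the pool (pairs of fragments or pools likewise over the whole table). Δmet averaged CpGs, with a Newcombe interval from Wilson 95% intervals at the median read number, and differences of Δmet took theirs from the same intervals. The upper limit of a zero is 3 reads of the total. Fragment means over all motifs needed 20 CpGs. Within-run values weighted runs with 10 reads of both fragments by their read numbers. CpGs named are the motif CpG, the nearest and farthest on each side, HMR ends, and profile extremes; −84, −101 and −178 in TET TKO were chosen after seeing values. Other motifs are named as neighbours in the order of Δmet. The members, lists and tests were chosen with earlier results of these data known. The tests were checked on simulated reads drawn without differences between runs or insertions. That check therefore does not cover the spread between runs seen here. Python 3.11.15, scipy 1.17.1 and R 4.3.3 were used. Libraries of single OCT4SOX2 lines and knockdowns hold no CTCF construct and were not used.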

Additional observations from a re-analysis of the deposited data

Results flagged for a closer look

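Differences in Δmet between cell types are listed where their 95% interval left out 0. Δmet of CTCF.1 was less negative in NP than in ESC pools by 9.04 points (0.676 to 18.4) without M.SssI and by 29.9 points (16.3 to 41.8) with it. Δmet of CTCF.2 was less negative in NP than in ESC without M.SssI by 30.3 points (22.3 to 37.1). In TET TKO against ESC pools with M.SssI, Δmet was less negative by 43.3 points (30.3 to 56.5) for CTCF.1 and by 42.8 points (23.9 to 57.1) for CTCF.2. For CTCF.1 without M.SssI the difference no longer left out 0 as a share of methylated calls over all CpGs (2.82 points), and it was negative within runs (−4.28 points). It lay mostly in the 5 downstream CpGs, where Δmet was −63.0 points in ESC and −27.7 in NP. Their ESC WT values rested on 22 reads of run 4. For CTCF.2 without M.SssI the difference did not leave out 0 within runs (7.09 points) or without ESC −SssI run 4 (17.3 points). Within runs, the ESC values without M.SssI covered 19 CpGs and the NP values 24. For CTCF.1 with M.SssI, the NP value rested on run 7. The interval compares single pools, with no replicate pool.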

How the results depend on the processing

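Of 629 alternative values, 568 kept their direction and side of the threshold, 28 reversed, 18 lost and 6 gained an interval that leaves out 0, and 9 counts moved by over 1.5 times. The cause of a change was not tested unless stated. With 50 reads per CpG, ESC +SssI minus ESC −SssI for CTCF.1 became −1.92 and NP −SssI minus ESC −SssI for CTCF.1 5.05 points. As a share of all calls these were −1.87 and 2.82 points. Within-run values of ESC −SssI covered 19 CpGs and those of the other pools 24, except 6 for CTCF.1 in NP +SssI. Without the motif CpG, CTCF.2 minus CTCF.1 in TET TKO was −9.47 points and left out 0. Within runs, Δmet of CTCF.1 was 25.9 points in NP +SssI and 0.270 in TET TKO, CTCF.2 minus CTCF.1 was −16.5 in ESC −SssI and −9.80 in TET TKO, ESC +SssI minus ESC −SssI was −4.67 (CTCF.1) and 8.43 (CTCF.2), NP +SssI minus NP −SssI 9.84 (CTCF.2), and NP −SssI minus ESC −SssI −4.28 (CTCF.1) and 7.09 (CTCF.2). Against the mean of all Sc fragments, TET TKO Δmet was 6.54 (CTCF.1) and −4.39 (CTCF.2), CTCF.2 minus CTCF.1 was 8.41 in ESC +SssI and −10.9 in TET TKO, and pool differences were −14.7 (ESC +SssI minus ESC −SssI, CTCF.1), −11.6 (NP +SssI minus NP −SssI, CTCF.2), −6.86 (NP −SssI minus ESC −SssI, CTCF.1) and −13.1 (NP +SssI minus ESC +SssI, CTCF.2). Against the fragment without a motif, the values were 7.37 and −3.57 for TET TKO Δmet, 8.41 for CTCF.2 minus CTCF.1 in ESC +SssI, −7.21 for ESC +SssI minus ESC −SssI (CTCF.1), −6.28 (CTCF.1) and 11.6 (CTCF.2) for NP −SssI minus ESC −SssI, and −17.5 for NP +SssI minus ESC +SssI (CTCF.2). With the Sc fragments of the CTCF motifs exchanged, CTCF.2 minus CTCF.1 was 25.5 in ESC +SssI, 3.70 in NP −SssI and −12.7 in TET TKO, ESC +SssI minus ESC −SssI −6.98 (CTCF.1), and NP +SssI minus ESC +SssI −9.14 (CTCF.2). With an interval from both amplicons, chosen after seeing the data, CTCF.2 minus CTCF.1 in TET TKO (−9.20) left out 0. CpGs called lower were 9 (CTCF.1, NP +SssI), 0 (CTCF.1, TET TKO) and 6 (CTCF.2, TET TKO) at a threshold of −20 points, 5 for CTCF.1 in NP +SssI by a Cochran-Mantel-Haenszel test over runs, and 0 for CTCF.1 in TET TKO with reads summed over 50 bp or with look-alike runs counted as 1, the latter chosen after seeing the data.

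Leaving out 1 run at a time, Δmet ranged for CTCF.1 and CTCF.2 from −50.1 to −39.1 and −78.2 to −61.6 in ESC −SssI, −50.1 to −44.4 and −69.4 to −47.2 in ESC +SssI, −42.1 to −38.0 and −45.7 to −43.1 in NP −SssI, −22.6 to 3.66 and −54.2 to −44.1 in NP +SssI, and −3.52 to 2.99 and −11.5 to −0.606 in TET TKO. CTCF.2 minus CTCF.1 ranged from −31.4 to −22.5, −25.0 to 2.89, −7.05 to −2.30, −53.5 to −28.2 and −9.04 to −3.60 in the same order of pools. Pool differences for CTCF.1 and CTCF.2 ranged from −6.68 to 4.34 and 5.32 to 27.5 (ESC +SssI minus ESC −SssI), 16.2 to 42.5 and −9.88 to 0.271 (NP +SssI minus NP −SssI), 0.296 to 11.3 and 17.3 to 33.9 (NP −SssI minus ESC −SssI), 23.2 to 49.4 and −2.59 to 19.6 (NP +SssI minus ESC +SssI), and 41.9 to 48.8 and 35.6 to 57.7 (TET TKO minus ESC +SssI). Without some runs 19 or 6 of the 24 CpGs remained, so some of these differences compare unlike sets of CpGs. Without ESC −SssI run 7, or NP −SssI run 8, 9 or 11, NP −SssI minus ESC −SssI of CTCF.1 (8.03, 8.53, 8.42 and 5.74 points) no longer left out 0. Counts of CpGs called lower ranged from 1 to 16 for CTCF.1 in NP +SssI (1 without run 7), and from 0 to 3 and 0 to 14 in TET TKO (0 without run 10). Leaving out 1 RNA library gave Ctcf levels of 44.0 to 48.1 (ESC), 37.4 to 41.5 (NP) and 58.4 to 65.9 RPKM (TET TKO).

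No paired analysis was possible because replicate numbers are shared only by RNA libraries, whose levels come from no test, and each pool is 1 table. WT and Sc reads matched by run are the within-run values above. Depth limits the ESC +SssI and TET TKO values most, where CTCF fragments had medians of 82.5 and 110 reads per CpG.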

Other observations

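Runs 1 and 5 of ESC −SssI and runs 2, 9 and 10 of NP −SssI held upstream fragment counts that did not differ beyond sampling noise (chi-square test, p from 0.0855 to 0.999 over all pairs named here), nor did the downstream counts of runs 1 and 11 of NP +SssI and of runs 10 and 11 of TET TKO. At the CTCF fragments, ESC −SssI runs 1 and 5 had CTCF.1 Sc at 76.4% and 77.8% upstream, and in NP +SssI runs 1 and 11 the downstream CpGs of CTCF.1 Sc stood at 50.9% and 50.4%.

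Scrambled motifs did not leave the CpG inside them at the level of the flanks in every pool. In ESC −SssI the Sc motif CpG was at 43.9% (CTCF.1) and 50.5% (CTCF.2), with medians of 74.7% and 82.0% over the CpGs outside. In NP +SssI it was at 46.6% against 82.5% for CTCF.1, but at 86.0% against 85.9% for CTCF.2. Run by run, the motif CpG of CTCF.1 Sc ranged from 19.5% to 61.4% in that pool and from 0% to 70.5% in ESC −SssI. That of CTCF.2 Sc ranged from 69.1% to 96.8% in NP +SssI, 49.4% to 51.2% in ESC −SssI and 4.17% to 77.3% in ESC +SssI.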
